A study of Bos taurus with 10 samples.

Results

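The retinoid genes examined here are 10 named genes of the vitamin A pathway, namely *RBP4*, *STRA6*, *CRABP1*, *CRABP2*, *ALDH1A1*, *ALDH1A2*, *RARA*, *RARB*, *RARG* and *RXRA*. They were chosen by name from a table of 20112 genes, and all 10 have a row in it. Retinol travels in blood bound to retinol binding protein and enters many cells through the receptor STRA6. Inside the cell it is oxidized to retinal and then to retinoic acid by retinaldehyde dehydrogenases of the ALDH1A family, and the CRABP proteins hold retinoic acid in the cytoplasm. Retinoic acid binds the nuclear receptors RARA, RARB and RARG, which act on DNA as heterodimers with an RXR, and vitamin A supply is known to matter for oocyte maturation and early development in cattle.

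RNA-seq was performed on 10 single bovine early blastocysts made in vitro, 5 WT and 5 *SOX2* KO. All 10 embryos received mRNA of BE3, a cytosine base editor, as zygotes, so the WT embryos also carried the editor. The *SOX2* KO embryos received in addition sgRNAs that direct BE3 to write a premature stop codon into *SOX2*, a transcription factor of the pluripotent lineage. Collection was on day 7.0 by the sample labels, whereas the methods of the study name a slightly later time. Each embryo was made into 1 Smart-seq2 library, which copies polyadenylated RNA of all its cells, so fewer cells of a type and less RNA per cell cannot be told apart. Editing was done in the embryo itself, read counts do not show the edited bases, and a mixture of edited and unedited cells within an embryo cannot be seen in these data. The paper reports that each sequenced blastocyst was genotyped from part of its cDNA. In edited blastocysts it found SOX2 protein strongly reduced by immunostaining, with few mosaic embryos. Read counts of *SOX2* do not measure that protein. Embryos are named nc1 to nc5 for WT and ko1 to ko5 for *SOX2* KO, as in the columns of the table.

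The values are normalized read counts, that is, reads per gene divided by a size factor of the embryo. They are not divided by gene length, so levels are compared between embryos and not between genes. The WT embryos had between 2223670 and 5134855 reads on genes, the *SOX2* KO embryos between 2578284 and 4337342. With so many reads, 3 reads, taken as the floor of detection, correspond to a normalized read count of 1.77 to 4.45, and this floor covers counting error only. Genes with at least 1 read numbered 15919 to 18092 in WT (median 17103) and 17987 to 19813 in *SOX2* KO embryos (median 19022). The median of the reads on genes was 4342477 in WT and 3126539 in *SOX2* KO. The part of this in genes near the floor was not tested. The 18S ribosomal RNA gene *RN18S1* took between 26.4% and 37.0% of the reads of WT embryos, and between 32.5% and 45.0% of those of *SOX2* KO embryos. The pluripotency factor *POU5F1* had at least 479 reads and the trophectoderm keratin *KRT8* at least 11421 reads in every embryo. *SOX2*, the targeted gene, had normalized read counts of 56.5, 93.4, 83.5, 73.0 and 84.4 in WT and of 39.0, 26.4, 64.0, 82.1 and 71.5 in *SOX2* KO embryos. Its groups overlapped and its log2 fold change was -0.55 (SE 0.27, n = 5 and 5, limma adjusted p = 0.167).

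The comparison of *SOX2* KO with WT asked which genes change when SOX2 is lost. The test was limma on log2(normalized read count + 1). It covered the 20056 genes whose mean reached 1, and all 10 retinoid genes passed this filter. A gene was called where its p, adjusted by Benjamini and Hochberg, was 0.05 or lower and its fold change was 2 or more, or 0.5 or less. The p-values set the difference of the group means against the spread between embryos within the groups, which limma moderates across genes. For genes with few reads the fold change on this scale depends on the pseudocount and on embryos with 0 reads. It can lie below or above that of DESeq2 or edgeR on the reads. Of the 10 retinoid genes 2 were called higher, *RBP4* and *RXRA*, and 0 were called lower. Among all tested genes 8.93% were called higher and 1.16% lower. The log2 fold change was above 0 for 8 of the 10 and below 0 for 2, with a median of 0.75, while the median of all tested genes was 0.25. With quantile normalization these medians were 0.10 and -0.02. The calls of the 2 genes held under 12 of 13 other settings and were both lost when the share of *RN18S1* reads was a covariate. Among the 13, the setting without a fold threshold could not lose a call. The setting without a filter on the mean was the same fit with 20112 genes in place of 20056.

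**Figure D1:**
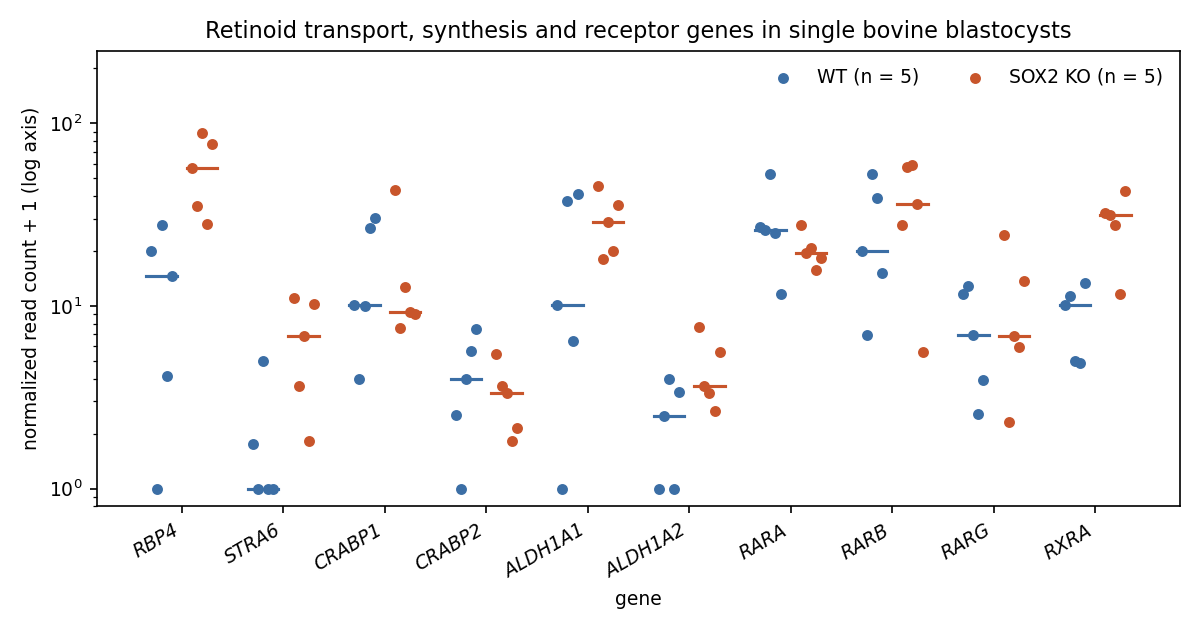
Normalized read count + 1 of the 10 retinoid genes on a log axis, with 1 point per embryo (blue, WT; orange, SOX2 KO; n = 5 each) and a bar at the median of the group. The points of *RBP4* do not overlap between groups, those of *RXRA* overlap by the lowest SOX2 KO embryo alone, and those of the other 8 genes overlap.

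*RBP4*, which encodes the carrier of retinol in plasma, had the lowest adjusted p of the 10 genes. Its normalized read counts were 19.1, 0, 26.8, 3.11 and 13.6 in the WT embryos nc1 to nc5. They were 55.7, 34.3, 87.2, 27.1 and 76.1 in the *SOX2* KO embryos ko1 to ko5. All 5 *SOX2* KO embryos lay above the highest WT embryo, though only by 27.1 in ko4 against 26.8 in nc3. Such a separation with higher values in *SOX2* KO was found for 6.41% of all tested genes, and the reverse for 2.76%. The group means were 12.5 ± 11.1 and 56.1 ± 25.9 (SD, n = 5 each), a ratio of 4.48. The log2 fold change was 2.70 (SE 0.66, 95% interval 1.33 to 4.06, limma adjusted p = 0.0122), and lower with DESeq2, at 2.15, and with edgeR, at 2.02. Embryo nc2 had 0 reads of *RBP4*, which at its depth allows a normalized read count of up to 4.45. Without nc2 the log2 fold change was 1.94, the lowest value when any 1 embryo was left out, and the gene was called in all 10 such fits.

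*STRA6*, the membrane receptor that takes up retinol from its carrier, was close to the floor of detection. WT embryos had normalized read counts of 0.763, 0, 3.98, 0 and 0, of which the highest, in nc3, stood for 4 reads. *SOX2* KO embryos had 10.02, 2.64, 5.81, 0.821 and 9.22, from 1 to 9 reads. Reads were present in 5 of 5 *SOX2* KO and in 2 of 5 WT embryos, and 3 of the *SOX2* KO embryos lay above the highest WT embryo. The log2 fold change of 1.84 (SE 0.63, 95% interval 0.52 to 3.15) missed the threshold (limma adjusted p = 0.0561). The gene was called when nc3 or ko4 was left out and when embryos were weighted by quality, and over the 12 settings that tested it the adjusted p ran from 0.0115 to 0.716.

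The cellular retinoic acid binding proteins gave no difference beyond the spread between embryos. *CRABP1* had normalized read counts of 9.16, 2.97, 8.95, 25.6 and 29.5 in WT and of 42.3, 6.60, 11.6, 8.21 and 8.07 in *SOX2* KO embryos. The highest and the next highest value thus came from different groups, and 1 embryo, ko1, stood far above the other 4 of its group. The log2 fold change was 0.02 (95% interval -1.16 to 1.197, limma adjusted p = 0.987), an interval that holds a fold change of 2 in either direction. *CRABP2* had 1.53, 0, 2.98, 4.66 and 6.49 in WT and 4.45, 2.64, 2.33, 0.821 and 1.15 in *SOX2* KO embryos, with at most 11 reads in any embryo. Its log2 fold change was -0.14 (95% interval -1.39 to 1.10, limma adjusted p = 0.892), and the sign of both fold changes depended on the setting. Within single embryos, the log2 ratio of *CRABP1* to *CRABP2* with a pseudocount of 1 lay between 1.32 and 2.23 in WT embryos and between 1.06 and 2.99 in *SOX2* KO embryos. At these low counts the pseudocount set the range, which in WT was 1.55 to 4.94 with 0.1 and 0.67 to 1.67 with 5.

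*ALDH1A1* and *ALDH1A2* encode enzymes that oxidize retinal to retinoic acid. *ALDH1A1* varied widely among WT embryos, at 9.16, 0, 36.8, 5.44 and 40.1. The *SOX2* KO embryos lay closer together, at 44.5, 17.2, 27.9, 18.9 and 34.6, and only ko1 exceeded the highest WT embryo. The coefficient of variation was 102% in WT and 39.7% in *SOX2* KO, where counting reads alone would give 22.4% and 19.7%. The difference of the spreads was not tested. With a log2 fold change of 1.48 (SE 0.71, limma adjusted p = 0.153) the gene was not called, and the value was 0.62 with DESeq2 and 0.50 with edgeR. *ALDH1A2* had 0, 1.48, 2.98, 0 and 2.36 in WT and 6.68, 2.64, 2.33, 1.64 and 4.61 in *SOX2* KO embryos, from at most 6 reads. It was not called either (log2 fold change 1.08, SE 0.57, limma adjusted p = 0.196).

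None of the 3 retinoic acid receptors was called. All 10 embryos had more than 3 reads of *RARA* and *RARB*, whereas *RARG* was below that floor in nc4, with 2 reads, and in ko2, with 1 read. *RARA* had normalized read counts of 25.9, 25.2, 51.7, 24.1 and 10.6 in WT and of 26.7, 18.5, 19.8, 14.8 and 17.3 in *SOX2* KO embryos. All *SOX2* KO values fell inside the WT range, and the log2 fold change was -0.35 (95% interval -1.11 to 0.41, limma adjusted p = 0.529). *RARB*, itself a classical target of retinoic acid, had 19.1, 5.93, 51.7, 38.1 and 14.2 in WT and 26.7, 56.8, 58.1, 35.3 and 4.61 in *SOX2* KO embryos. The *SOX2* KO group thus held both the highest and the lowest embryo (log2 fold change 0.43, 95% interval -0.76 to 1.62, limma adjusted p = 0.631). *RARG* had 10.7, 11.9, 5.97, 1.55 and 2.95 in WT and 23.4, 1.32, 5.81, 4.93 and 12.7 in *SOX2* KO embryos, which again enclosed the WT range. Its log2 fold change was 0.31 (95% interval -0.99 to 1.62, limma adjusted p = 0.763), and its sign turned under quantile normalization.

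*RXRA*, the dimer partner that RARs share with several other nuclear receptors, was higher in *SOX2* KO embryos. WT embryos had normalized read counts of 9.16, 10.4, 3.98, 3.89 and 12.4, and *SOX2* KO embryos had 31.2, 30.4, 26.7, 10.7 and 41.5. Embryos ko1, ko2, ko3 and ko5 lay above every WT embryo, and ko4 lay within the WT range. The means were 7.96 ± 3.85 and 28.1 ± 11.2 (SD, n = 5 each), a ratio of 3.53, from 4 to 36 reads per embryo. The log2 fold change was 1.71 (SE 0.44, 95% interval 0.80 to 2.61, limma adjusted p = 0.0161). Without ko5 it was 1.54 and no longer called (limma adjusted p = 0.0594), and it was called in the other 9 fits that left out 1 embryo. With a pseudocount of 1, the log2 ratio of *RARA* to *RXRA* within an embryo lay between -0.20 and 3.40 in WT embryos and between -1.22 and 0.43 in *SOX2* KO embryos, and these ranges overlapped.

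**Figure D2:**
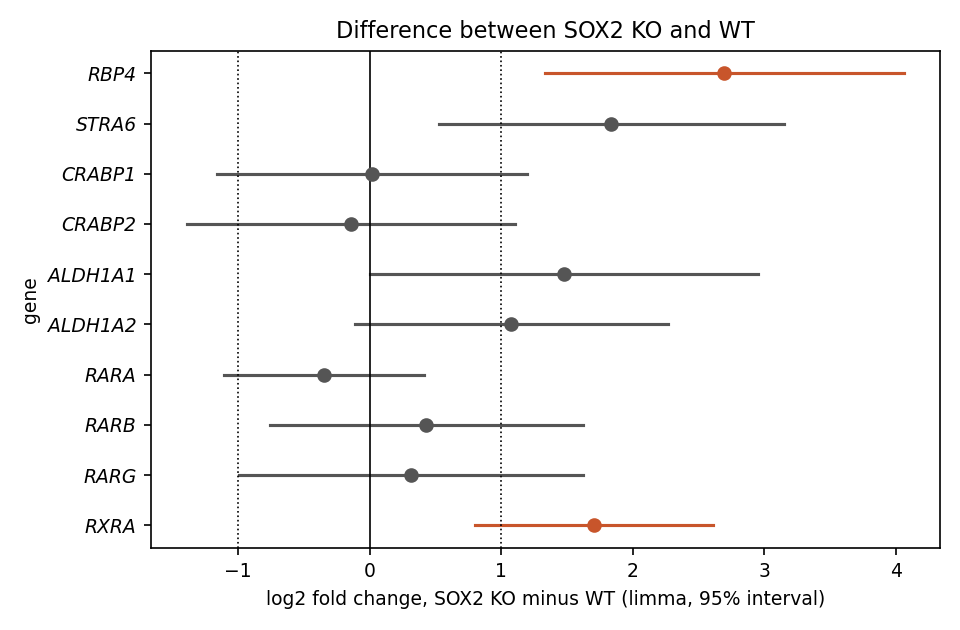
Log2 fold change (SOX2 KO minus WT, limma on log2(normalized read count + 1)) of the 10 retinoid genes, with 95% intervals as horizontal lines. Orange marks the 2 called genes, dotted lines mark a fold change of 2 in either direction, and the intervals of *RBP4*, *STRA6*, *ALDH1A1* and *RXRA* lie above 0 before adjustment over all genes.

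Few reads stood behind most of these genes. Of the 10, 6 had a mean normalized read count of 10 to under 100 and included both calls, against 6.76% called higher among all tested genes of that range. The other 4, *STRA6*, *CRABP2*, *ALDH1A2* and *RARG*, had a mean under 10, where 14.1% of all tested genes were called higher and 0 of the 4 were. The spread between embryos exceeded counting error for most genes, with a coefficient of variation of *RBP4* of 88.8% in WT and 46.2% in *SOX2* KO where counting gives 27.1% and 14.1%. For *CRABP2* in *SOX2* KO embryos it was 63.0%, below the 69.9% that counting alone gives. *RARA* in *SOX2* KO embryos was in the same position, at 23.1% against 23.96%.

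The share of *RN18S1* reads moved with the group. The WT embryo with the largest share, nc3 at 37.0%, had the highest *RBP4* of its group, and ko3 and ko5, at 39.6% and 45.0%, had the highest values of the *SOX2* KO group. With that share as a covariate the log2 fold change of *RBP4* was 1.56 and its limma adjusted p 0.353, and over all 13 settings the adjusted p ran from 0.00462 to 0.353. For *RXRA* the order in WT was different, as nc3 had 3.98 and nc5, with the smallest share of 26.4%, had the highest value of 12.4. In the *SOX2* KO group ko5, with the largest share, had the highest *RXRA* value of 41.5. Embryo ko4, with the smallest share of that group, 32.5%, had the lowest value of 10.7. Embryo ko3, at 39.6%, had 26.7, below ko1 and ko2 with smaller shares. The log2 fold change of *RXRA* with the covariate was 1.66 (limma adjusted p = 0.181), close to the value without it. Its adjusted p ran from 0.00266 to 0.181 over all settings. The covariate and the group were correlated (r = 0.62), and the part of the *RN18S1* share in either result was not tested further.

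**Figure D3:**
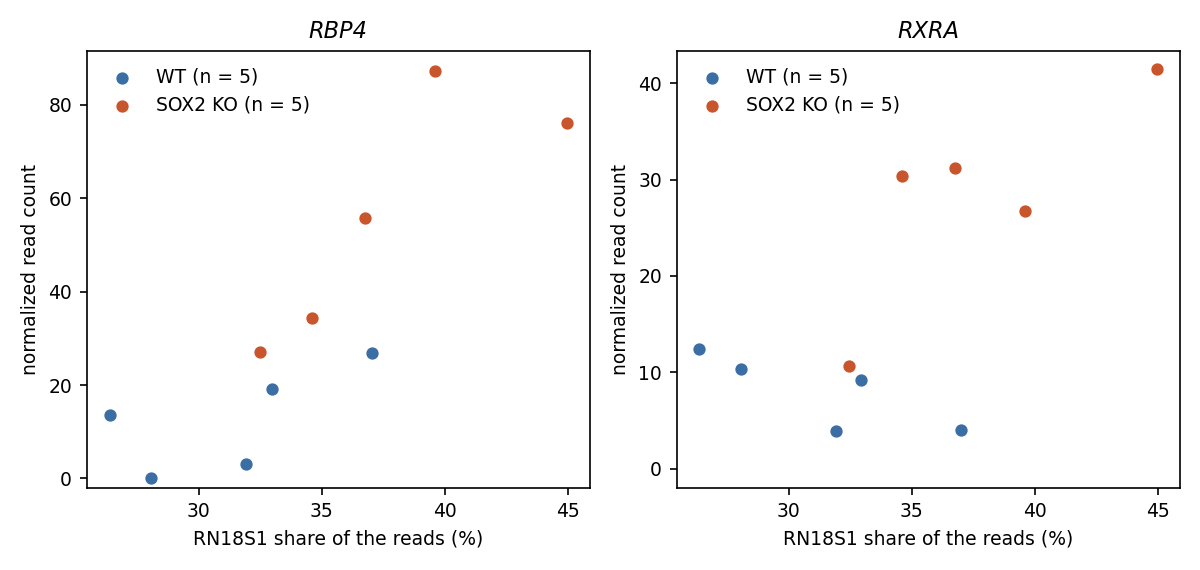
Normalized read count of *RBP4* (left) and *RXRA* (right) against the share of *RN18S1* in the reads of the embryo, in percent, with 1 point per embryo (blue, WT; orange, SOX2 KO; n = 5 each). The shares of the groups overlap between 32.5% and 37.0%, and the highest *RBP4* values, 87.2 and 76.1, belong to the embryos with the largest shares. The highest *RXRA* value, 41.5, belongs to ko5, the embryo with the largest share.

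Some cell type markers also differed between the groups, where 8.93% of all tested genes were called higher and 1.16% lower. Of 17 epiblast markers tested 5 were called lower and 0 higher, and their summed normalized read count lay between 4201 and 5150 in WT against 2757 to 3805 in *SOX2* KO. Of 18 primitive endoderm markers 5 were called lower and 1, *APOA1*, higher, with sums of 10145 to 17552 in WT against 6442 to 9107 in *SOX2* KO. The fibronectin gene *FN1* alone made up 72.1% of their total, and of the 18 markers 9 had a log2 fold change above 0 and 9 below. Of 21 trophectoderm markers 4 were called higher and 0 lower, with sums of 27497 to 40807 in WT against 38498 to 52729 in *SOX2* KO. The keratin gene *KRT8*, which was not called, made up 51.2% of their total. Among 17 cumulus cell markers 3 were called higher, the collagens *COL1A1* and *COL1A2* and the proteoglycan *DCN*, while the granulosa markers *AMH* and *FOXL2* had at most 6 reads in any embryo. Other markers of that list had more, with up to 51 reads of *FSHR*, 17 of *CYP19A1* and 70 of *STAR*. *CYP11A1*, which makes pregnenolone, had 16.8, 14.8, 29.8, 83.9 and 82.6 in WT and 402, 331, 359, 1.64 and 228 in *SOX2* KO embryos. It was higher than every WT embryo in 4 of 5 *SOX2* KO embryos and was not called by limma (adjusted p = 0.196), whereas the adjusted p was 0.0164 with edgeR and 0.0555 with DESeq2. The cumulus list summed to 593 to 2338 in WT against 1263 to 2862 in *SOX2* KO. *PTGS2*, which is also on the trophectoderm list and was not called, made up 80.7% of that total. Of 14 oocyte markers 1 was called higher. The part of these markers in the values of *RBP4* and *RXRA* was not tested.

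The wider pathway was described by 6 lists with 124 other genes, of which 104 were in the table and all 104 were tested. Of these 9 were called higher and 4 lower, where 8.93% and 1.16% of all tested genes were, and their median log2 fold change was 0.59. Uptake and binding genes held 3 of the 9, with 8 tested. *LRP2*, the endocytic receptor megalin that recovers retinol binding protein in the kidney, had normalized read counts of 3206, 2775, 2499, 2092 and 2669 in WT. It had 5621, 5155, 5519, 5270 and 7431 in *SOX2* KO embryos, a separation with no overlap (log2 fold change 1.13, SE 0.18, limma adjusted p = 0.000624). *FABP5*, a fatty acid binding protein that can also carry retinoic acid, had 55.7, 48.9, 82.5, 181 and 291 in WT and 973, 577, 688, 1211 and 1023 in *SOX2* KO embryos. Its log2 fold change of 3.04 (SE 0.36, limma adjusted p = 2.92e-05) came without overlap of the groups, and an annotated lncRNA that overlaps it had at most 8 reads per embryo. The third, *RBP3*, the retinoid carrier of the retina, had at most 1 read in a WT and 11 in a *SOX2* KO embryo, and lost its call in 8 of 10 fits without 1 embryo and under 6 of 12 settings.

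Among 27 genes of retinoid storage and retinal formation, 3 were called higher and 1 lower. The one called lower, *DHRS7*, a short-chain dehydrogenase, had 205, 156, 186, 113 and 138 in WT and 28.9, 19.8, 25.6, 97.8 and 26.5 in *SOX2* KO embryos. All *SOX2* KO values lay below the lowest WT value, with ko4 nearest to it (log2 fold change -2.21, SE 0.32, limma adjusted p = 0.000246). The 3 called higher were the retinal reductase *DHRS4*, the retinol dehydrogenase *RDH16* and the carboxylesterase *CES1*, which had at most 27, 9 and 6 reads in any embryo and lost their calls in 7, 8 and 7 of 10 fits without 1 embryo. *RDH10* and *DHRS3*, which oxidize retinol and reduce retinal in the embryo, had log2 fold changes of 0.26 and 0.29, and *RDH11* one of 0.15, none of them called. *LRAT*, which esterifies retinol for storage, was not called either (log2 fold change -0.20, limma adjusted p = 0.861).

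Of 9 genes of retinoic acid synthesis and breakdown 1 was called, the third retinaldehyde dehydrogenase *ALDH1A3*. It had 13.7, 14.8, 22.9, 38.9 and 40.7 in WT and 88.0, 62.1, 70.9, 93.6 and 96.9 in *SOX2* KO embryos. The lowest *SOX2* KO embryo lay well above the highest WT embryo (means 26.2 ± 12.9 and 82.3 ± 15.1, SD, n = 5 each), and the log2 fold change was 1.73 (SE 0.30, limma adjusted p = 0.00126). The CYP26 enzymes, which degrade retinoic acid and are induced by it, were close to the floor. *CYP26A1* had 3 reads in nc1 and 0 in the other WT embryos, and 1 to 5 reads in each *SOX2* KO embryo (log2 fold change 1.47, limma adjusted p = 0.0768). *CYP26B1* and *CYP26C1* were not called by limma. For *CYP26B1* the log2 fold change was 1.15 (limma adjusted p = 0.248) and for *CYP26C1* it was 0.41 (limma adjusted p = 0.672). *CYP26B1* was called with array weights (limma adjusted p = 0.0484) and without ko4 (limma adjusted p = 0.0300), and over 12 settings its adjusted p ran up to 0.954.

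**Figure D4:**
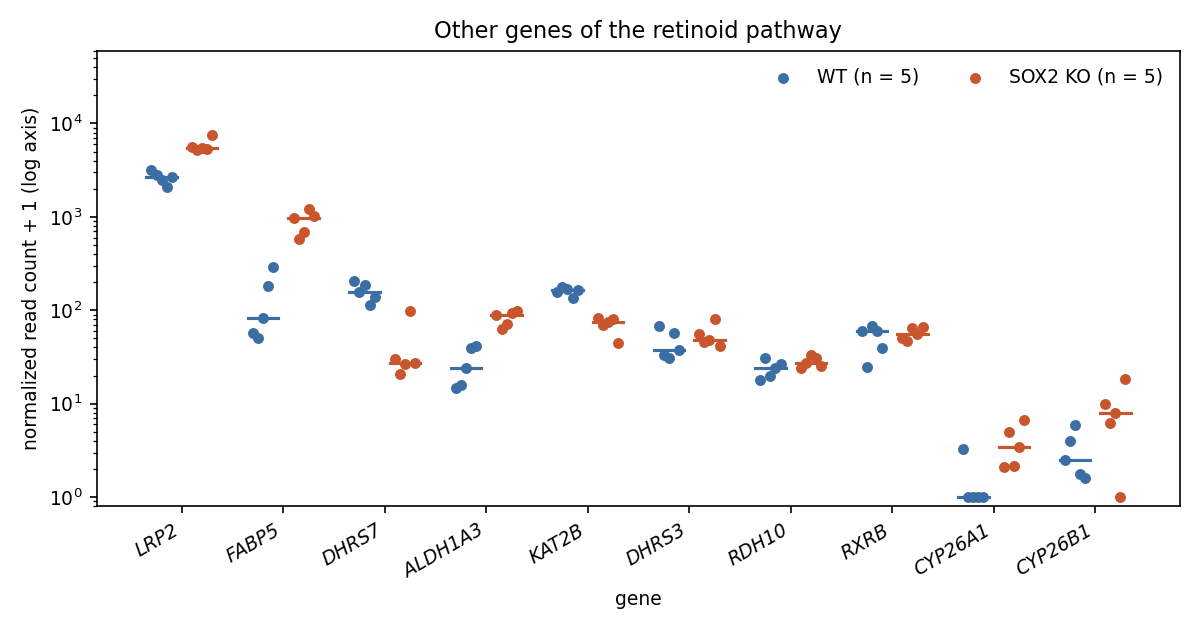
Normalized read count + 1 of 10 other genes of retinoid handling on a log axis, with 1 point per embryo (blue, WT; orange, SOX2 KO; n = 5 each) and a bar at the median. *LRP2*, *FABP5* and *ALDH1A3* lie higher and *DHRS7* and *KAT2B* lower in SOX2 KO with no overlap, and the other 5 genes overlap.

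Of the 6 pathway lists, receptors and cofactors had the lowest median log2 fold change, -0.05 over 22 genes. They were also better expressed, with a median of the mean normalized read counts of 100.8 against 17.0 for all tested genes. Among all genes with a mean of at least 10 the median log2 fold change was -0.04. The part of the level in the median of this list was not tested. Of the 22 genes 0 were called higher and 1 lower. The one called lower was *KAT2B*, an acetyltransferase coactivator, at 155, 178, 168, 135 and 165 in WT and 81.3, 68.7, 74.4, 79.7 and 43.8 in *SOX2* KO embryos (log2 fold change -1.22, SE 0.19, limma adjusted p = 0.000624). Of the paralogs of *RXRA*, *RXRB* had a log2 fold change of 0.25 and was not called (limma adjusted p = 0.546). *RXRG* had 0 reads in every WT embryo and at most 8 in a *SOX2* KO embryo, and it missed the threshold with limma (adjusted p = 0.0549). *RXRG* was called with DESeq2 (adjusted p = 0.0423), edgeR (adjusted p = 0.0300) and array weights and when ko2 was left out, and over 12 settings its adjusted p ran from 0.0247 to 0.291. Whether *RXRA* changed more than its paralogs was not tested.

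Of 30 genes known as targets of retinoic acid 1 was called higher and 2 lower. *STRA8*, a meiosis gene that retinoic acid induces in germ cells, was called higher from 0 reads in all WT and at most 5 reads in *SOX2* KO embryos, too near the floor for a fold (limma adjusted p = 0.0189). The homeobox gene *MEIS2* had 9.92, 20.8, 7.95, 27.2 and 5.90 in WT and 3.34, 0, 1.16, 1.64 and 5.77 in *SOX2* KO embryos (log2 fold change -2.25, SE 0.59, limma adjusted p = 0.0174). Without nc4 it was -1.98 and not called (limma adjusted p = 0.0541). Of 14 partner receptors of RXR 1 was called, *NR1I2*, from at most 3 reads in WT and 11 in *SOX2* KO embryos. That call was lost in 9 of 10 fits without 1 embryo and under 6 of 12 settings. Under the setting without a fold threshold no call could be lost. The calls of *LRP2*, *FABP5*, *ALDH1A3* and *DHRS7* held under all 13 settings and in all 10 fits without 1 embryo. They were also the 4 calls left with the *RN18S1* share as a covariate, under which *KAT2B* kept an adjusted p of 0.0396 at a log2 fold change of -0.97 and missed the fold threshold.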

How the data were processed

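Single bovine blastocysts were sequenced with Smart-seq2. Per the labels and methods, the authors used Trimmomatic for trimming, HISAT2 for mapping to ARS-UCD1.2 and featureCounts for counting. They deposited a normalized signal, in which the read counts were divided by a DESeq2 size factor per embryo. All 201120 values (100%) were whole multiples, within 0.01, of 1 step per embryo, which gave the reads back. Annotation, strand setting and treatment of shared reads are not given in the sources used here, so reads of paralogs or overlapping genes could be shared. In the annotation of ARS-UCD2.0, *ALDH1A2* overlaps 1 other gene, *RARB* 2 and *FABP5* 1.

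Columns were assigned to groups by name. The tests were limma 3.58.1 (lmFit, eBayes with trend) in R 4.3.3, checked on simulated counts, and DESeq2 1.42.0 and edgeR 4.0.16 on the recovered reads. The simulation changed better expressed genes only, by 4-fold, with the same spread beyond counting error for all genes. Most of the 10 retinoid genes, *RXRA* among them, had lower means than those changed genes. Tables and figures were made in Python 3.11.15. The other alternatives were pseudocounts, scalings, filters, array weights, the *RN18S1* covariate and leaving out each embryo. The values come from the reads of 1 library per embryo without molecular identifiers, so floors cover counting error only, whereas the 95% intervals of limma come from the spread between embryos. The named genes are *SOX2*, the 10 genes, every called gene of the pathway lists, genes 1 step from retinoic acid supply, breakdown or reception, and the 3 genes most alike each called one. *POU5F1*, *KRT8*, *FN1* and the cumulus markers given came from the marker lists and were named after their values were seen. Members and lists were chosen with earlier results of these data known. Sequences were not analysed here, and single values of some genes on the lists are not reported here.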

Additional observations from a re-analysis of the deposited data

Results flagged for a closer look

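Among 66 groups of 5 embryos examined, 7 had 1 embryo far from the other 4. Chance gives about 1 in 20, or 3.3, for normally distributed values. Read counts are skewed and some of these groups hold mostly 0, so the 7 cannot be read as an excess. In each of the 7 the outlying embryo was the highest. *STRA6* was 3.98 in nc3 (4 reads) and at most 0.763 in the other WT embryos, and the gene was called when nc3 was left out. *CRABP1* was 42.3 in ko1 against 6.60 to 11.6 in the rest of its group, and without ko1 its log2 fold change was -0.42. *LRAT* was 14.5 in ko1 against 0.821 to 3.49. *LRP2* was 7431 in ko5 against 5155 to 5621. *DHRS7* was 97.8 in ko4 against 19.8 to 28.9. *CES1* was 1.99 in nc3, from 2 reads, and *CYP26A1* was 2.29 in nc1, from 3 reads, each with 0 reads in the other WT embryos.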

How the results depend on the processing

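Of the 10 retinoid genes 2 were called under 11 of 13 settings, 3 with array weights and 0 with the *RN18S1* covariate. With that covariate 1 had an unadjusted p under 0.05. When an embryo was left out 1 to 3 were called. Without a fold threshold a call could be gained but not lost. Of the pathway genes 13 were called, against 8 with a pseudocount of 0.1 or 5, 7 with quantile normalization, 5 with a mean of at least 10, 4 with the covariate, 24 with array weights and 7 to 19 without 1 embryo. Over all genes 2024 were called, and 1185 with a pseudocount of 5, 1076 with quantile normalization, 692 with a mean of at least 10, 220 with the covariate, 3515 with array weights, 2136 with DESeq2, 1985 with edgeR and 930 to 3316 without 1 embryo, the highest without ko4. The share of calls that were higher was 88.5%, but 58.5% with quantile normalization, which also moved the median of all genes from 0.25 to -0.02, 62.3% with the covariate, 72.5% with a mean of at least 10 and 76.5% without a fold threshold. Among the named genes, signs turned only for genes that were not called. *CRABP1* was -0.016 with a pseudocount of 5, -0.091 at equal totals, -0.33 with quantile normalization, -0.021 with DESeq2, -0.15 with edgeR, -0.082 with array weights and -0.42 to 0.34 without 1 embryo. *CRABP2* was 0.23 with a pseudocount of 0.1 and -0.58 to 0.15 without 1 embryo. *RARG* was -0.25 with quantile normalization, -0.19 with the covariate and -0.092 to 0.76 without 1 embryo. *LRAT* was 0.034 with DESeq2, 0.40 with the covariate and -0.73 to 0.084 without 1 embryo. With quantile normalization *CYP26C1* was -0.67, and with the covariate *CYP26B1* was -0.14 and *RXRB* -0.20. The median over the 10 retinoid genes was 0.75, and 0.10 with quantile normalization, 0.41 with a pseudocount of 5 and 1.14 with one of 0.1. The causes were not tested. A mean of at least 10 left *STRA6*, *CRABP2*, *ALDH1A2* and *RARG* without a test. No paired analysis was possible because the *SOX2* KO columns carry no replicate number of a label.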

Other observations

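The genes whose values varied most like those of *RBP4* across the 10 embryos, after the group means were taken out, were *WDR7* (r = 0.958), *UNC13D* (r = 0.944) and *JUNB* (r = 0.935), among the 6982 genes whose mean reached 50. For *RXRA* they were *ANKRD26* (r = 0.931), *LBR* (r = 0.910) and *MBOAT2* (r = 0.889). These values describe 10 libraries that differ in depth and in the share of *RN18S1* reads. They are the highest of 6982 correlations for each gene, and how high the largest would run by chance was not tested. Of the 6 genes *UNC13D* was called higher in *SOX2* KO (log2 fold change 1.07, limma adjusted p = 0.0282).

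With a pseudocount of 1, the log2 ratio of *RARA* to *RARG* within an embryo lay between 1.03 and 3.30 in WT and between 0.19 and 3.07 in *SOX2* KO embryos, and the ranges overlapped.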
